A study of Mus musculus with 3 samples.

Results

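The genes described are 9 regulators, junction proteins and surface proteins of epithelial cells: Esrp1, Grhl2, Elf3, Cldn4, Rab25, Spint1, St14, Epcam and Lsr. They were chosen by name, and each was listed in the 3 count tables, which together listed 27886 genes. The tables held 622 single cells of a male F1 mouse line (C57BL/6 x CAST/EiJ): 215 mouse embryonic stem cells (mESC), 175 cells of cardiac precursor cell cultures (CPCC) and 232 cells of beating cardiac bodies (CB). The mESC grew on gelatin in 2i medium with LIF. The CPCC came from embryoid bodies of these lines formed in medium with ascorbic acid, then dissociated and passaged in medium with EGF and Fgf2. The CB were the contracting aggregates formed by longer culture in the medium with ascorbic acid. The lines were 3 male clones, each grown from 1 cell, and the names of the cells do not say which clone a cell came from. Each culture is 1 sample, so no p-values are given. Cell names carry a number that the labels do not explain. It is taken here as the pool in which the library was sequenced, with 3 pools of mESC, 2 of CPCC and 3 of CB. Pools are used here to show spread within a culture and are not replicates. No cell name occurred in 2 tables.

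Epithelial cells form sheets that are sealed by tight junctions and held together by cadherin junctions and desmosomes. Grhl2 and Elf3 are transcription factors that drive epithelial genes, and Esrp1 is an RNA-binding protein that sets the epithelial form of splicing in many transcripts. Zeb and Snail family repressors act against the same programme when cells become mesenchymal. Mouse embryonic stem cells grow as compact colonies joined by E-cadherin, and Epcam is among their known surface proteins. Cldn4 is a claudin of the tight junction strand, Lsr recruits tricellulin to the corners where neighbouring cells meet, and Rab25 is a small GTPase of the apical recycling endosome. St14 encodes matriptase, a serine protease of the cell surface, and Spint1 encodes its Kunitz-type inhibitor.

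The genes lie on 9 different chromosomes (GRCm38, GENCODE M21), so they are not neighbours. Esrp1 lies at chr4:11331933-11386783 on the minus strand, Grhl2 at chr15:37233036-37363569 on the plus strand and Elf3 at chr1:135253575-135258568 on the minus strand. Cldn4 lies at chr5:134945119-134946934 (minus), Lsr at chr7:30957770-30973464 (minus) and Rab25 at chr3:88542029-88548300 (minus). Spint1 lies at chr2:119237362-119249527 (plus), St14 at chr9:31089402-31131853 (minus) and Epcam at chr17:87635979-87651129 (plus).

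RefSeq (GRCm38.p6) gave the promoter of 6 of the 9 genes: Cldn4, Epcam, Rab25, Lsr, Elf3 and Spint1. The 250 bases before the start of 4 of them are shown, because Cldn4 and Epcam were detected in both stem cells and keratin-high CB cells, and Rab25 and Lsr mainly in the latter. The motif CACCTG, or CAGGTG on the other strand, is an E-box of the kind that Zeb and Snail proteins bind, and its copies are in capitals.
Cldn4, chr5:134946935-134947184, minus strand: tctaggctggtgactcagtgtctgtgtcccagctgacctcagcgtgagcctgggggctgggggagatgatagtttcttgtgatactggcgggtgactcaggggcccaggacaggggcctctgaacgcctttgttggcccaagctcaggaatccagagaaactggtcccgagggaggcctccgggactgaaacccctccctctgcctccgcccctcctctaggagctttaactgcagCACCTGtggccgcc
Epcam, chr17:87635729-87635978, plus strand: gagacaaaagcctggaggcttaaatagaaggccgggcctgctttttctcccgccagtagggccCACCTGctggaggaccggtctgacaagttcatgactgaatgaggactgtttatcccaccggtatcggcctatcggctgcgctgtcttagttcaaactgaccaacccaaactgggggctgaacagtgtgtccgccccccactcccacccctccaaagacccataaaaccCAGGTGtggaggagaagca
Rab25, chr3:88548280-88548529, minus strand: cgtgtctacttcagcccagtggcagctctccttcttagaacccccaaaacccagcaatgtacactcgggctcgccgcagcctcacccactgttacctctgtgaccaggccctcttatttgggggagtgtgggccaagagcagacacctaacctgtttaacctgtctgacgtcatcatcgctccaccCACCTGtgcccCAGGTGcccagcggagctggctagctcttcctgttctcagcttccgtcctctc
Lsr, chr7:30973470-30973719, minus strand: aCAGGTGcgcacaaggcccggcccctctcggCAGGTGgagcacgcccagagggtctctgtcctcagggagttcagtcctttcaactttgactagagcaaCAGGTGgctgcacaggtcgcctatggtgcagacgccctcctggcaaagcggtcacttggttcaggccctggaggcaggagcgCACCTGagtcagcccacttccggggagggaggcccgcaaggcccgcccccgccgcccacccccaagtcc

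The E-box was in 5 of the 6 windows, all but Spint1, and in 17.2% of 32851 windows of the same length over all genes. Cldn4 held 1 copy, Epcam 2, Rab25 2, Lsr 4 and Elf3 1. The grainyhead motif AACCGGTT was in 0 of the 6 windows and in 0.116% of all. Its looser form AACNNGTT, which overlaps it, was in the Rab25 window and in 3.64% of all. The ETS motif CCGGAAGT was in the Lsr and Spint1 windows and in 2.88% of all. GGGCGG was in 4 windows (32.7% of all), and TATAAA in 0 (12.4% of all). All 6 motifs were searched on both strands, and were chosen after some matches had been seen.

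Most cells were deeply sequenced. The median total per cell was 1528316 counts in mESC, 1437414 in CPCC and 1397869 in CB, and the median number of genes with at least 1 count was 9532, 9252 and 6661. The range was wide: mESC held 569 to 8105511 counts a cell, CPCC cells 8102 to 5705829, and CB cells 4 to 4284771. Levels are counts per 1000000 (CPM) of the summed counts of a set of cells. A gene is called detected in a cell at 1 count or more, and shares of cells carry 95% Clopper-Pearson intervals that cover counting error only.

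CB cells were clustered without the 9 genes among the variable genes, and 43 of the 232 formed a cluster led by the keratins Krt4 (2293 CPM against 1.12 in the other CB cells) and Krt15 (1905 against 1.08), with Cyp2f2 (4520 against 0.736), Serpinb11 (870 against 0.0255) and Upk3bl (2205 against 2.87). These are the epithelial-like cells of the cardiac bodies. In most of them 9 of 11 epithelial markers were detected, and those markers summed to 10576 CPM against 534 in the other CB cells. Upk3bl is on the mesothelial list, of which 3 of 10 markers were in most of these cells (6222 CPM in sum, against 132 in the other CB cells), while Wt1, also on that list, was at 0. None of the 10 leading genes was on the epithelial list, so the cells are called keratin-high here. Of the 43 cells, 11 came from pool 1, 32 from pool 3 and 0 from pool 2. The remaining 189 CB cells were 81 fibroblast-like cells (9 of 10 markers in most cells), 20 endothelial-like cells (10 of 10) and 88 cells of an unnamed cluster led by Car14, Actc1, Sall4, Tdh and Lrp2. No gene of the cardiomyocyte list was detected in most cells of any CB cluster (0 of 12).

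The 9 genes fell into 2 patterns in stem cells. Elf3, Cldn4, Epcam, Spint1 and St14 were detected in most mESC. Esrp1, Grhl2, Rab25 and Lsr were detected in few. In CPCC and CB, Esrp1, Grhl2, Rab25 and Lsr were higher than in mESC, Epcam was also higher, and Elf3 was lower. All 9 were higher in keratin-high cells than in the other CB cells.

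**Figure D1:**
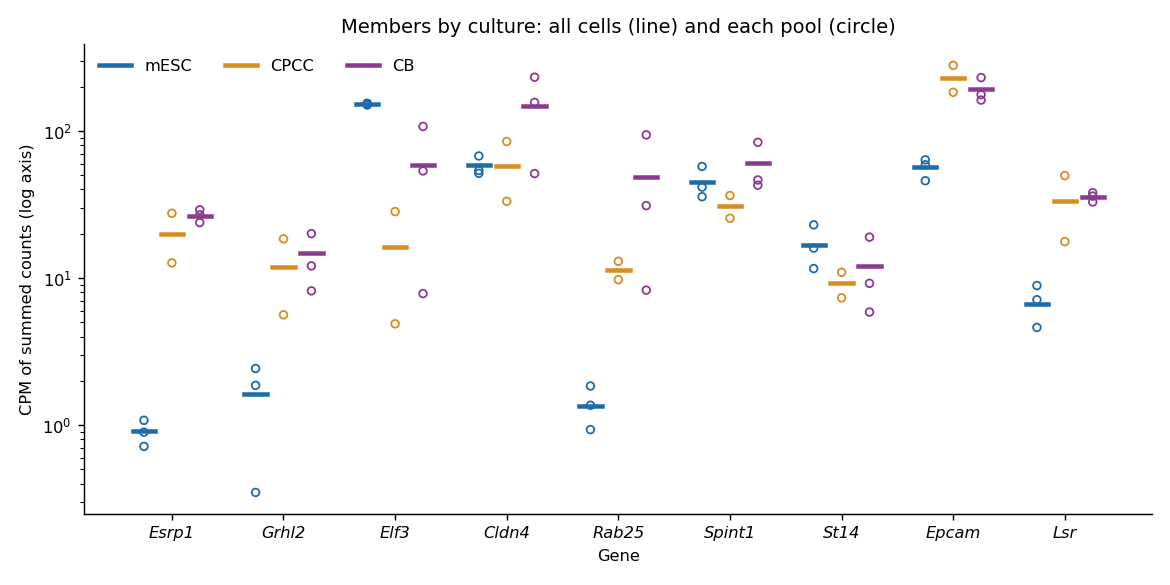
CPM of the summed counts (log axis) of each gene in mESC, CPCC and CB, with a line for all cells of a culture and a circle for each of its pools. Elf3 stands at 150 to 154 CPM in the mESC pools and below in each pool of the other cultures, while Esrp1, Grhl2, Rab25, Epcam and Lsr are lower in each mESC pool than in any CPCC or CB pool.

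Of the regulators, Esrp1 was at 0.914 CPM in mESC (Poisson interval 0.817 to 1.02), at 19.9 in CPCC and at 26.5 in CB. The mESC pools were at 0.895, 1.08 and 0.716 CPM, the CPCC pools at 27.6 and 12.7 CPM, and the CB pools at 26.9, 29.1 and 23.8 CPM. Each mESC pool was low, and no mESC pool reached a CPCC or CB pool. Esrp1 was detected in 9 of 215 mESC, or 4.19% (1.93 to 7.80), in 54.3% of CPCC cells and in 25.9% of CB cells. In fibroblast-like CB cells, a type not known for these genes, it was detected in 3 of 81 cells, or 3.70% (0.770 to 10.4). The median depth of those cells was 1341250 counts, near that of mESC. The cells that held it were at a median of 11.4 CPM in mESC and 1.66 CPM among the fibroblast-like cells. Cells with 10 counts or more were 6 of 215 in mESC and 1 of 81 among the fibroblast-like cells. The share of mESC with a count was thus not above the background share, although a few mESC held the gene at a higher level.

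Grhl2 followed the same order. It was at 1.64 CPM in mESC, at 11.8 in CPCC and at 14.8 in CB, with pools at 1.86, 2.43 and 0.348 CPM, at 18.5 and 5.62 CPM, and at 8.18, 12.1 and 20.04 CPM. The mESC pools lay below all others, and the CPCC and CB pools overlapped. It was detected in 24 of 215 mESC (11.2%, interval 7.28 to 16.2), in 40.0% of CPCC cells and in 17.2% of CB cells. The background share in fibroblast-like cells was 3.70%, and its interval (0.770 to 10.4) overlapped that of mESC. In the 24 mESC the median level was 13.8 CPM, and in the 3 fibroblast-like cells it was 0.588 CPM. At 10 counts or more, Grhl2 was in 16 of 215 mESC and in 0 of 81 fibroblast-like cells. Most of the Grhl2 counts of CB pool 1 were in 1 cell, and without it this pool was at 3.35 CPM, still above each mESC pool.

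Elf3 was highest in mESC and lowest in CPCC. It was at 153 CPM in mESC, at 16.2 in CPCC and at 58.6 in CB. The 3 mESC pools were close together at 154, 154 and 150 CPM, while the CPCC pools were at 28.3 and 4.88 CPM and the CB pools at 53.5, 7.84 and 107 CPM. Elf3 was the most widely detected of the 9 genes in mESC, in 202 of 215 cells (94.0%, interval 89.9 to 96.7), against 34.3% of CPCC cells and 58 of 232 CB cells. The low CB pool, pool 2, is the one without keratin-high cells.

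Of the junction genes, Cldn4 was at 58.6 CPM in mESC, at 58.2 in CPCC and at 148 in CB. The mESC pools were at 53.9, 67.6 and 51.5 CPM and lay within the range of the CPCC pools (84.9 and 33.3 CPM). The CB pools were spread widely, at 157, 51.3 and 232 CPM, with pool 2 again the lowest. Cldn4 was found in 82.3% of mESC, in 62.9% of CPCC cells and in 36.6% of CB cells. The share was thus lowest in the culture where the summed level was highest.

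Lsr was at 6.70 CPM in mESC, at 33.2 in CPCC and at 35.5 in CB. Its CB pools, at 36.1, 38.0 and 32.9 CPM, were close to each other and did not follow the pools' number of keratin-high cells. The mESC pools were at 8.89, 4.61 and 7.12 CPM and the CPCC pools at 49.7 and 17.7 CPM, so the mESC pools lay below all others. Lsr was detected in 20.5% of mESC (15.3 to 26.5), 56.6% of CPCC and 41.8% of CB cells. Its share of 12.3% in fibroblast-like cells (6.08 to 21.5) overlapped that of mESC. At 10 counts or more Lsr was in 26 of 215 mESC and in 6 of 81 fibroblast-like cells, and the cells that held it were at a median of 13.9 and 17.1 CPM, so some fibroblast-like cells held Lsr at the level of the mESC that did.

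Of the protease pair, St14 was at 16.9 CPM in mESC, at 9.20 in CPCC and at 12.1 in CB. The mESC pools, at 23.0, 16.0 and 11.6 CPM, lay just above the CPCC pools at 7.34 and 10.9 CPM, and overlapped the CB pools at 9.20, 5.87 and 19.0 CPM. Of the St14 counts of CB pool 1, 56.4% were in 1 cell, and without it this pool was at 4.11 CPM. Its inhibitor Spint1 was at 44.8 CPM in mESC, at 30.8 in CPCC and at 60.9 in CB. The Spint1 pools were at 57.4, 41.5 and 35.7 CPM in mESC, 36.4 and 25.5 CPM in CPCC, and 46.4, 42.8 and 83.8 CPM in CB. For both genes the largest share of cells was in mESC, 62.8% for St14 and 71.6% for Spint1, against 29.1% and 54.3% of CPCC and 18.1% and 31.9% of CB cells. In mESC, 100 cells held both, 54 only Spint1, 35 only St14 and 26 neither.

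Of the trafficking and surface genes, Rab25 was at 1.35 CPM in mESC, at 11.3 in CPCC and at 49.0 in CB. The mESC pools were at 1.85, 0.932 and 1.36 CPM, the CPCC pools at 13.0 and 9.75 CPM and the CB pools at 31.1, 8.27 and 94.1 CPM. All mESC pools were low, and CB pool 2 was below both CPCC pools. Rab25 was detected in 10.7% of mESC (6.90 to 15.6), with a background of 7.41% in fibroblast-like cells (2.77 to 15.4). At 5 counts or more the shares were 9.30% of mESC and 1.23% of fibroblast-like cells, and at 10 counts or more Rab25 was in 18 of 215 and 1 of 81 cells. The cells that held it were at a median of 15.6 CPM in mESC and 0.974 CPM among the fibroblast-like cells, so the 2 sets were alike only in the share with any count.

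Epcam was at 56.9 CPM in mESC, at 230 in CPCC and at 194 in CB. The mESC pools were at 58.9, 63.6 and 45.9 CPM, the CPCC pools at 279 and 183 CPM, and the CB pools at 177, 162 and 231 CPM. The CPCC and CB pools overlapped, and all were above each mESC pool. Cells with Epcam were 79.1% of mESC, 70.9% of CPCC and 39.7% of CB cells. The median level in the cells that held it was 53.8 CPM in mESC, against 331 in CPCC and 384 in CB.

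A change is called past 2-fold where the log2 ratio of CPM + 1 is at least 1 in size. Against mESC, 5 of the 9 genes were higher in CPCC, where 13.4% of all 20272 genes were, and 1 was lower, where 6.38% were. The log2 ratios were 3.45 for Esrp1, 2.28 for Grhl2, 2.39 for Rab25, 1.99 for Epcam and 2.15 for Lsr. Elf3 was lower by a log2 ratio of -3.16. Cldn4 (-0.01), Spint1 (-0.53) and St14 (-0.81) were not past 2-fold. The median of the 9 was 1.99 against -0.01 over expressed genes, those of at least 1 CPM in either culture. Those 5 genes were higher in each CPCC pool than in any mESC pool, as were 19% of all genes. Elf3 and St14 were lower in each CPCC pool, as were 19.4% of all genes, so a lack of overlap between pools was common here. Without CPCC pool 1 the ratio was 2.84 for Esrp1 and -4.71 for Elf3, and without CPCC pool 2 St14 was also lower past 2-fold. Without the CPCC cell with most of its counts, St14 was at a ratio of -1.09.

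In CB against mESC, 6 of the 9 genes were higher past 2-fold, as were 24.9% of all 19855 genes, and Elf3 was lower, as were 11.3%. The log2 ratios were 3.84 for Esrp1, 2.58 for Grhl2, 1.32 for Cldn4, 4.41 for Rab25, 1.75 for Epcam and 2.25 for Lsr, and -1.37 for Elf3. The median over expressed genes was itself 0.29 in this comparison, and the median of the 9 was 1.75. Esrp1, Grhl2, Rab25, Epcam and Lsr were higher in each CB pool than in any mESC pool (24.7% of all genes), and Elf3 was lower (18.1%). The Cldn4 pools overlapped. Without CB pool 2, Elf3 was not past 2-fold. Without CB pool 3, Rab25 was at a ratio of 2.82, Cldn4 was not past 2-fold and St14 was lower past 2-fold.

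In CB against CPCC, 3 of the 9 genes, Elf3 (1.79), Cldn4 (1.33) and Rab25 (2.02), were higher past 2-fold on the log2 scale, as were 17% of all 20995 genes, and none was lower, as were 7.54%. The pools of these 3 genes overlapped, and Spint1 (0.96) was the only one of the 9 whose CB pools were all above its CPCC pools, as were those of 17.9% of all genes. None was below in all pools, as were 10.1%. This comparison rested on 2 pools. Without CB pool 3, which held 32 of the 43 keratin-high cells, 0 of the 9 were past 2-fold. Without CPCC pool 1, 6 were higher, with Esrp1, Grhl2 and Spint1 added. The 2 comparisons with mESC share the mESC cells, and the ratios are given side by side only.

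All 9 genes were higher past 2-fold in the keratin-high cells than in the other CB cells, as were 10.4% of all 24229 genes, while 20.5% were lower. The levels of the cell sets that make up the cultures show where each gene was held. Elf3 was at 291 CPM in keratin-high cells and 4.37 CPM in the other CB cells (log2 ratio 5.76), and Rab25 at 240 and 4.55 CPM (5.44). Cldn4 was at 652 CPM, 21.7 times its level in the other CB cells (4.40), St14 at 51.1 and 2.96 CPM (3.72) and Spint1 at 223 and 23.0 CPM (3.22). Grhl2 was at 52.1 and 6.05 CPM (2.91), Epcam at 654 and 86.8 CPM (2.90), Esrp1 at 73.7 and 15.4 CPM (2.18) and Lsr at 85.5 and 23.9 CPM (1.80). Elf3 and Rab25 thus differed most and Lsr least. The median of the 9 was 3.22, against -0.29 over expressed genes. Pool 2 held no keratin-high cell and 58 of the 88 cells of the unnamed cluster. Without it the ratios were wider, at 4.31 for Esrp1, 5.21 for Grhl2, 5.87 for Cldn4, 7.08 for Elf3, 6.84 for Rab25, 5.31 for Spint1, 5.37 for St14, 5.21 for Epcam and 2.89 for Lsr.

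Both pools with keratin-high cells held all 9 genes. In pools 1 and 3, the levels were 112 and 64.8 CPM for Esrp1, 37.3 and 55.6 CPM for Grhl2, and 263 and 298 CPM for Elf3. They were 764 and 626 CPM for Cldn4, 149 and 261 CPM for Rab25, and 743 and 633 CPM for Epcam. Spint1 was at 206 and 227 CPM, St14 at 44.7 and 52.6 CPM and Lsr at 123 and 76.6 CPM. With all cells, no gene differed by as much as 2-fold between these pools. Pool 1 rested on 11 cells, and single cells weighed on its low genes, with 1 cell holding 67.8% of the Grhl2, 59.9% of the St14 and 55.6% of the Esrp1 counts. Without the cell with most of its counts, Grhl2 was at 13.7 CPM, St14 at 20.5 CPM and Esrp1 at 55.2 CPM in pool 1, so Grhl2 and St14 were then more than 2-fold below pool 3.

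Markers of fibroblasts were also present in the keratin-high cells, with 5 of 10 detected in most cells, none at 0 and a sum of 1427 CPM (median cell 149, range 1.98 to 16152), against 23674 CPM in fibroblast-like cells. In the 31 keratin-high cells with less than 1000 CPM of these markers, all 9 genes were also past 2-fold against the other CB cells, with log2 ratios from 1.91 for Lsr to 5.88 for Elf3. Epcam and Cldn4 were detected in each of these 31 cells.

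**Figure D2:**
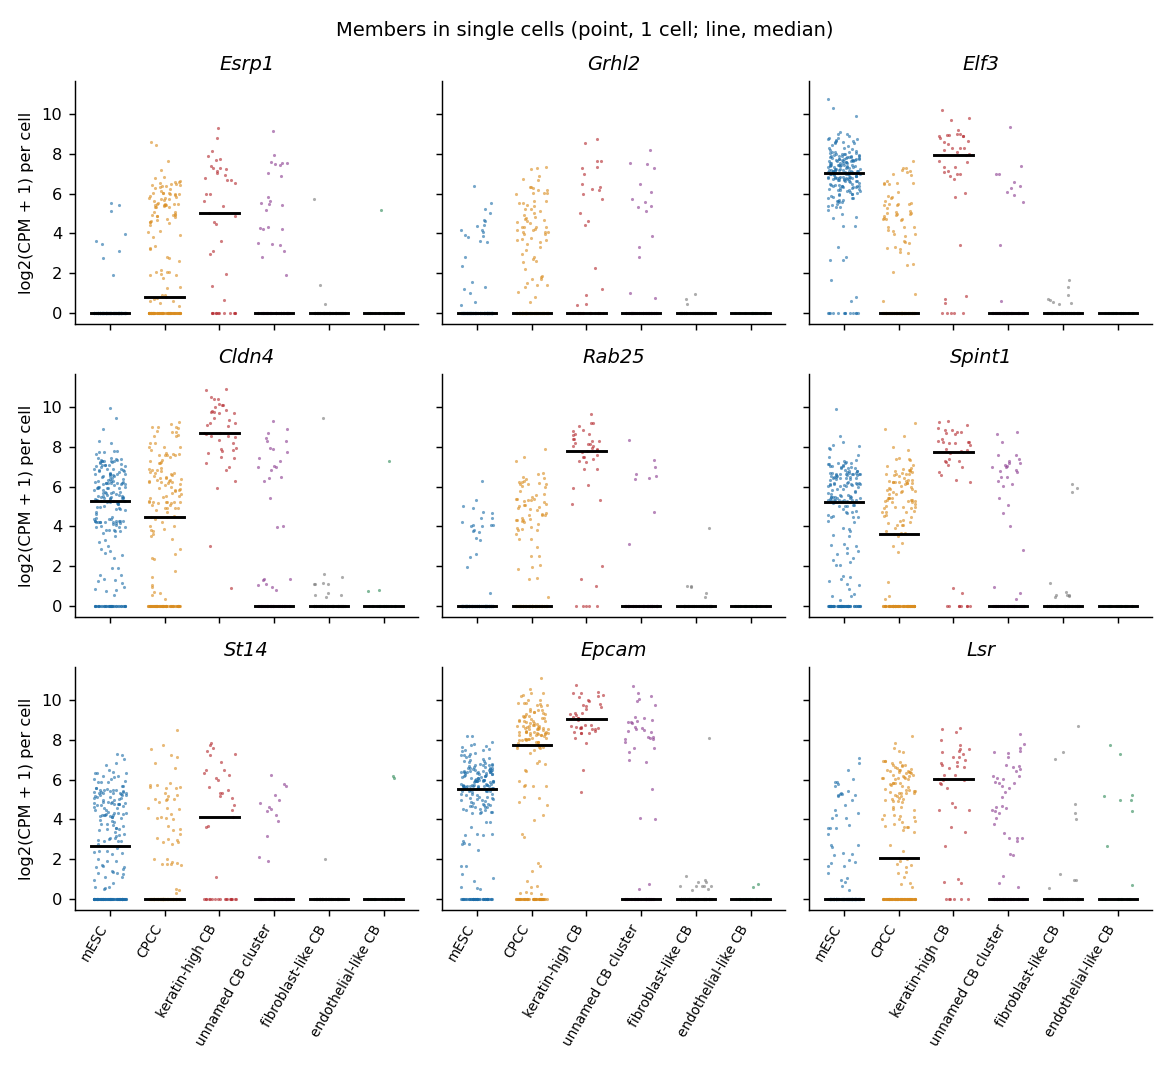
Level of each gene in single cells, as log2 of CPM + 1, for mESC, CPCC and 4 sets of CB cells, with 1 point a cell and a line at the median. Elf3, Cldn4, Spint1 and Epcam have high medians in mESC and in keratin-high cells. Esrp1, Rab25 and Lsr have them only in keratin-high cells among these 2 sets, and most fibroblast-like cells are at 0 for each gene.

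Between mESC and keratin-high CB cells, 5 of the 9 genes were shared, that is, found in 25% or more of each set of cells, as were 42.9% of 19855 genes. The 5 were Elf3 (94.0% of mESC and 88.4% of keratin-high cells), Cldn4 (82.3% and 100%), Spint1 (71.6% and 81.4%), St14 (62.8% and 58.1%) and Epcam (79.1% and 100%). The other 4 were at 25% or more in keratin-high cells only: Esrp1 (4.19% and 72.1%), Grhl2 (11.2% and 48.8%), Rab25 (10.7% and 88.4%) and Lsr (20.5% and 86.0%). Of all genes, 4.9% were in that class. Genes found in 25% or more of keratin-high cells (47.8% of all genes) were mostly shared, 89.8% of 9493, against 5 of the 9 here. After each cell was thinned to 430000 counts the same 5 were shared. The thinned shares in mESC were 97.4% for Elf3, 82.9% for Cldn4, 69.9% for Spint1, 60.1% for St14 and 81.3% for Epcam. Of the other 4, the highest was Lsr at 19.7%.

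**Figure D3:**
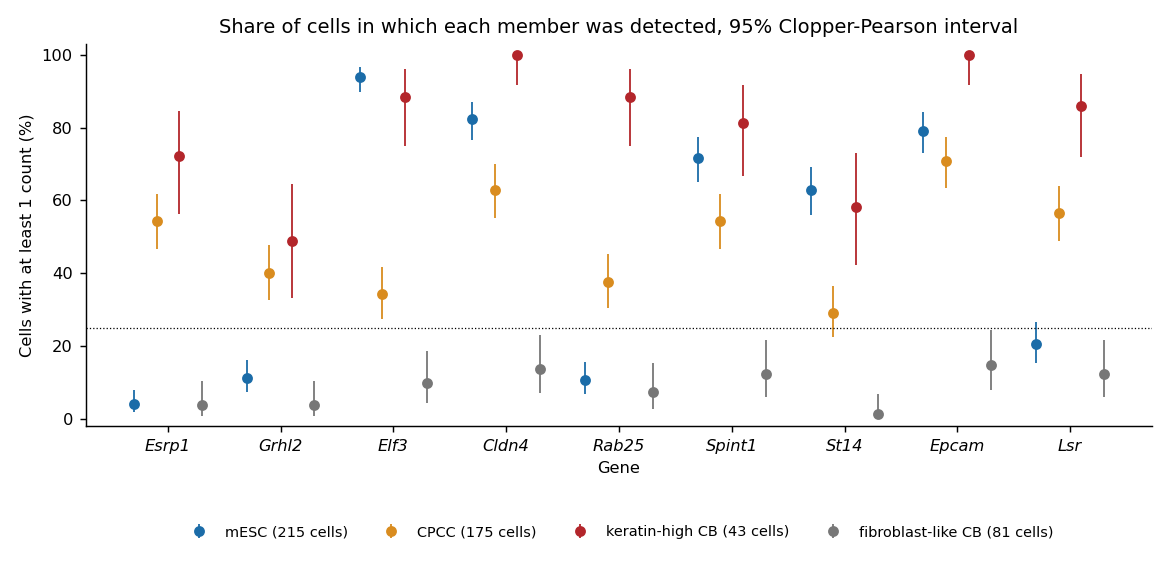
Share of cells with at least 1 count of each gene in mESC, CPCC, keratin-high CB cells and fibroblast-like CB cells, with 95% Clopper-Pearson intervals and a dotted line at 25%. For Esrp1, Grhl2, Rab25 and Lsr the mESC point is under the line and its interval overlaps that of fibroblast-like cells, and for the other 5 it is at 62.8% or above.

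Being shared did not mean an equal level. In keratin-high cells 8 of the 9 genes were more than 2-fold above mESC (21.8% of 19855 genes were), and none was lower (19.6%). Elf3, with 291 against 153 CPM, had a log2 ratio of 0.93 and was the exception. Cldn4 (3.46), Epcam (3.50), Spint1 (2.29) and St14 (1.54) were higher though shared. Of the 4 that were not shared, Rab25 was at 6.68, the widest gap of the 9, Esrp1 at 5.29, Grhl2 at 4.33 and Lsr at 3.49.

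The order of the genes, compared as CPM per kilobase of merged exons, also differed. In mESC the levels were 68.9 CPM per kilobase for Elf3, 32.2 for Cldn4, 25.9 for Epcam, 16.2 for Spint1, 3.08 for Lsr, 2.21 for St14, 0.805 for Rab25, 0.190 for Grhl2 and 0.145 for Esrp1. In keratin-high cells they were 359 for Cldn4, 298 for Epcam, 143 for Rab25, 131 for Elf3, 80.8 for Spint1, 39.3 for Lsr, 11.7 for Esrp1, 6.69 for St14 and 6.05 for Grhl2. Elf3 was the highest in mESC and stood below Cldn4 and Epcam in keratin-high cells. The order of Elf3 and Rab25 differed between the pools of those cells, with 119 and 89.0 CPM per kilobase in pool 1 and 134 and 156 in pool 3. The regulators Esrp1 and Grhl2 were among the lowest in both.

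In the CPCC, 2 clusters held Esrp1, Epcam and Rab25 at their highest levels. Cluster 0 (66 cells, 57 from pool 1) had 10 of 10 pluripotency markers in most cells, and cluster 2 (30 cells, 28 from pool 2), led by Fgf8, Ackr4, Lix1 and Fgf5, had 7 of 10. Esrp1 was at 32.9 CPM in cluster 0 and 46.6 CPM in cluster 2, with a share of 80.3% and 86.7%. Epcam was at 364 and 601 CPM, with a share of 100% and 96.7%. Elf3 was at 33.5 and 22.7 CPM, with a share of 60.6% and 40.0%, so both clusters were well below mESC (153 CPM).

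Against mESC, cluster 0 had the same 5 genes higher as the whole CPCC culture (5.48% of all 20272 genes were higher), and Elf3 and St14 lower (6.75%). The log2 ratios in cluster 0 were 4.14 for Esrp1, 3.36 for Grhl2, 3.19 for Rab25, 2.66 for Epcam, 2.13 for Lsr, -2.16 for Elf3 and -1.25 for St14. In cluster 2 the same 5 genes were higher, and Cldn4 (1.11) as well, making 6 (14.9% of genes), while Elf3 (-2.70) alone of the 9 was lower (10.6%). The Cldn4 call rested on 1 cell with 33.4% of its counts, without which the ratio was 0.64 and 5 genes were higher. In this cluster Cldn4 was at 541 CPM in the 2 cells of pool 1 and at 73.1 CPM in the 28 cells of pool 2. Without the cell with most of its counts, Elf3 in cluster 2 was at 13.9 CPM (ratio -3.36). The collagen-high cluster 1 (55 cells) held Lsr at 36.6 CPM and Cldn4 at 36.1 CPM, with Epcam at 49.0 CPM and Rab25 at 0.137 CPM. Lsr was in 36.4%, Cldn4 in 34.5% and Epcam in 38.2% of these cells, so their median cell was at 0, and without 1 cell that held 44.1% of its counts Epcam was at 27.9 CPM. The 14 macrophage-like cells of cluster 3 held Spint1 at 15.2 CPM, in 3 of 14 cells and with 73.1% of the counts in 1 of them (4.17 CPM without it). St14 was at 3.04 CPM, all from 1 cell, and the other 7 genes were at no more than 0.158 CPM.

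In the other CB cells the 9 genes were unevenly spread. The 81 fibroblast-like cells held Cldn4 at 7.81 CPM, Lsr at 8.78 CPM and the others at no more than 3.14 CPM, the level of Epcam. In 1 fibroblast-like cell Cldn4 was at 692 CPM, against a median of 1.11 CPM in the 11 cells that held it. Without the cell with most counts of the gene, Cldn4 was at 0.119 CPM, Epcam at 0.0933 CPM and Lsr at 3.14 CPM in this set. Endothelial-like cells held Lsr in 9 of 20 cells (45.0%, interval 23.1 to 68.5) at 28.3 CPM (18.2 CPM without the cell with most counts), while Grhl2, Elf3, Rab25 and Spint1 were each in 0 of 20 cells, which allows a share of up to 15%. Cldn4 was in 3 of the 20 cells (15.0%, interval 3.21 to 37.9), and Esrp1, St14 and Epcam in 1 or 2 each, so the intervals of Lsr and Cldn4 overlapped.

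The unnamed CB cluster was mixed. Epcam was in 35 and Cldn4 in 28 of its 88 cells, at 186 and 56.6 CPM over all of them. Split by how many of the 9 genes a cell held, a cut made after the values were seen, 10 cells held 7 or more, 16 held 4 to 6 and 62 held 0 to 3. Of the 10, 9 came from pool 2, which had no keratin-high cell. As a description, those 10 cells held Epcam at 488 CPM, Cldn4 at 194 CPM, Esrp1 at 136 CPM and Spint1 at 131 CPM, but Elf3 at only 49.8 CPM and Rab25 at 49.3 CPM. They also held the tight junction gene Cldn6 at 478 CPM and Krt18 at 679 CPM, while Krt15, a leading gene of the keratin-high cluster, was at 0. The 16 cells with 4 to 6 of the genes held Epcam at 451, Cldn4 at 140, Spint1 at 125, Cldn6 at 430 and Krt18 at 636 CPM. In those 16 cells Esrp1 was at 53.8, Rab25 at 14.6 and Elf3 at 9.41 CPM. The median total of the 10 cells was 1704020 counts. Doublets were not called, and their part in these cells was not tested.

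**Figure D4:**
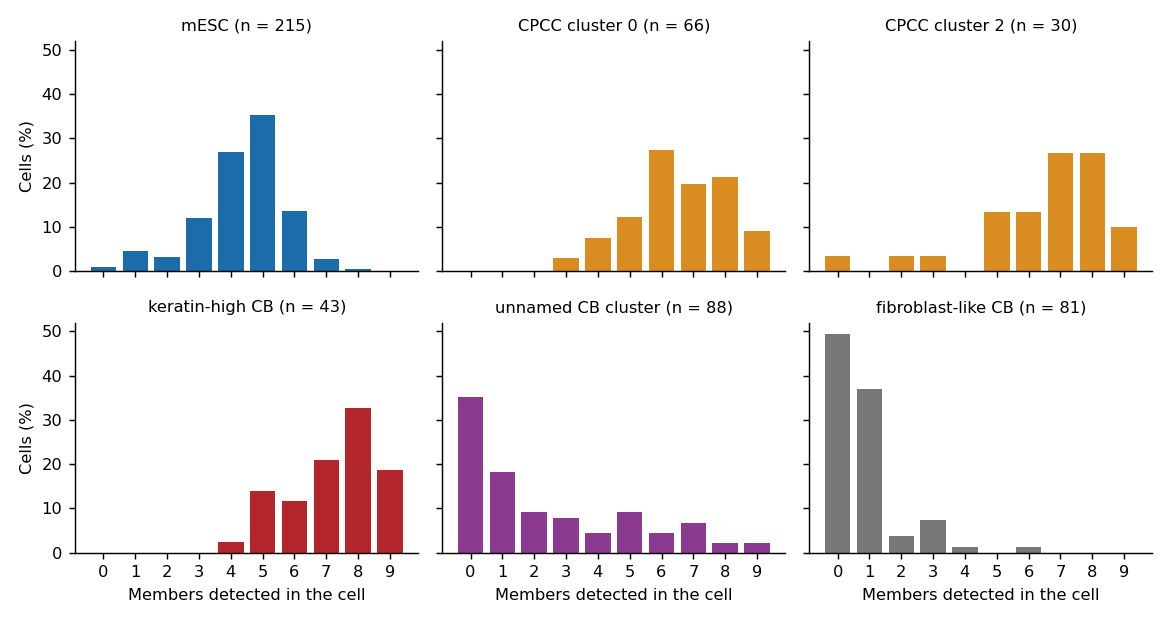
Share of cells (vertical axis, percent) by the number of the 9 genes detected in the cell (horizontal axis), for mESC, CPCC clusters 0 and 2 and 3 sets of CB cells. The keratin-high cells are highest at 8 genes, mESC at 5 and fibroblast-like cells at 0, and the unnamed CB cluster spreads from 0 to 9.

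Counted per cell, the median was 8 of the 9 genes in keratin-high cells, 5 in mESC, 6.5 in CPCC cluster 0, 7 in CPCC cluster 2 and 1 in the fibroblast-like, endothelial-like and unnamed CB clusters. After thinning it was 7 in keratin-high cells and 4 in mESC. At least 7 genes were found in 31 of 43 keratin-high cells, in 57 of 175 CPCC cells and in 7 of 215 mESC. All 9 were found in 8 keratin-high cells, 11 CPCC cells and 0 mESC. The lowest number in a keratin-high cell was 4.

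Within mESC and within keratin-high cells, rank correlations between the 9 genes were low. Esrp1, Grhl2, Rab25 and Lsr were each at 0 in most mESC. Pairs with them were therefore mostly ties and cannot show how the levels relate. Over the 36 pairs, Spearman's rho across 207 mESC ran from -0.20 to 0.17, and across the 43 keratin-high cells from -0.29 to 0.32. Across the unnamed CB cluster it ran from 0.07 to 0.78, highest for Cldn4 and Epcam. These cells share sequencing pools and differ in depth, and the values are descriptions. Across 223 CB cells, the genes outside the 9 whose log2 level was most like the mean of the 9, among 13729 genes detected in at least 10% of cells, included Krt19 (Pearson's r 0.89), Cldn7 (0.88), Krt7 (0.86) and Cdh1 (0.85). Of these, Cdh1, which encodes E-cadherin, was also in 93.0% of mESC, whereas Krt19 was in 4.65%, Krt7 in 13.5% and Cldn7 in 15.8%.

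Other epithelial genes were taken from lists chosen by function. The counts below are read against all genes. Of these, 10.4% were higher and 20.5% lower past 2-fold in keratin-high than in other CB cells, and 42.9% were shared with mESC. Of genes at 25% or more in keratin-high cells, 89.8% were shared. The class at 25% or more in keratin-high cells only held 4.9% of all genes. Among 10 further regulators, 9 were higher past 2-fold in keratin-high than in other CB cells, 0 were lower, and Klf4 was not past 2-fold. Klf5 was at 326 and 16.5 CPM, Ehf at 318 and 0.427 CPM and Klf4 at 151 and 124 CPM. Against mESC, 0 of the 7 listed in both tables were higher and 3 (Grhl3, Klf4 and Klf5) lower in CPCC, where 13.4% and 6.38% of all genes were, and 5 of 8 were higher and 1 lower in CB (24.9% and 11.3%). Of the 8 listed in both mESC and CB, Grhl3, Klf4 and Klf5 were shared with mESC, and Esrp2, Grhl1, Ovol1 and Ehf were at 25% or more in keratin-high cells only. Klf5, a Krüppel-like factor, and Grhl3, a paralogue of Grhl2, were in 96.7% and 78.1% of mESC.

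Of 15 tight junction and polarity genes, 13 were higher in keratin-high cells and 0 lower. F11r, an immunoglobulin-type junction protein, was at 354 and 65.8 CPM, and the claudins Cldn3 and Cldn7 at 244 and 14.1 CPM and at 239 and 34.5 CPM. All 15 were at 25% or more in keratin-high cells. Of them, 8 were shared with mESC, against 89.8% of all such genes, and 7 were not. Against mESC, 5 of the 15 were higher and 1 was lower in CPCC (13.4% and 6.38% of all genes), and 11 were higher and 1 lower in CB (24.9% and 11.3%). The lower gene was Ildr1 in both, a paralogue of Lsr at the same cell corners. Ildr1 was at 42.0 CPM in mESC, against 6.70 CPM for Lsr, and at 2.72 CPM in CPCC.

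Of 10 adherens junction and desmosome genes, 8 were higher in keratin-high cells and 0 lower. Perp was at 1192 and 13.4 CPM, the alpha-catenin Ctnna1 at 470 and 222 CPM and desmoplakin, Dsp, at 292 and 22.4 CPM. Of the 9 listed in both tables, 7 were shared with mESC. Against mESC, 2 were higher and 1 was lower in CPCC (13.4% and 6.38% of all genes), and 2 were higher and 0 lower in CB (24.9% and 11.3%). All 4 further membrane proteases and inhibitors were higher, with Spint2, which like Spint1 is a Kunitz-type inhibitor, at 935 and 63.2 CPM, Tmprss2 at 85.6 and 16.4 CPM and Prss8 at 67.4 and 23.5 CPM. Of the 3 listed in both tables, 1 (Spint2) was shared with mESC, 1 was higher in CPCC than in mESC (13.4% of all genes) and 3 were higher in CB (24.9%). Of 7 adhesion and trafficking genes, 6 were higher and 0 lower. Rab11fip1 was at 91.4 and 12.0 CPM and Ap1m2 at 50.9 and 13.4 CPM. Of the 6 listed in both tables, 1 (Rab11fip1) was shared with mESC, 3 were at 25% or more in keratin-high cells only and 1 in mESC only. Against mESC, 2 were higher and 1 was lower in CPCC (13.4% and 6.38% of all genes), and 5 were higher and 0 lower in CB (24.9% and 11.3%).

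The mesenchymal genes went the other way. Of 8, 7 were lower past 2-fold in keratin-high than in other CB cells and 0 were higher. Vimentin, Vim, was at 47.6 and 685 CPM, fibronectin, Fn1, at 158 and 633 CPM and the repressor Zeb1 at 1.58 and 69.7 CPM. Against mESC, 5 of the 7 listed in both tables were higher in CPCC (13.4% of all genes) and 6 in CB (24.9%). In keratin-high cells against mESC, Snai1, Snai2 and Twist1 were higher, Zeb1, Cdh2 and Fn1 lower (21.8% and 19.6% of all genes), and Vim, at 41.9 CPM in mESC, was not past 2-fold.

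**Figure D5:**
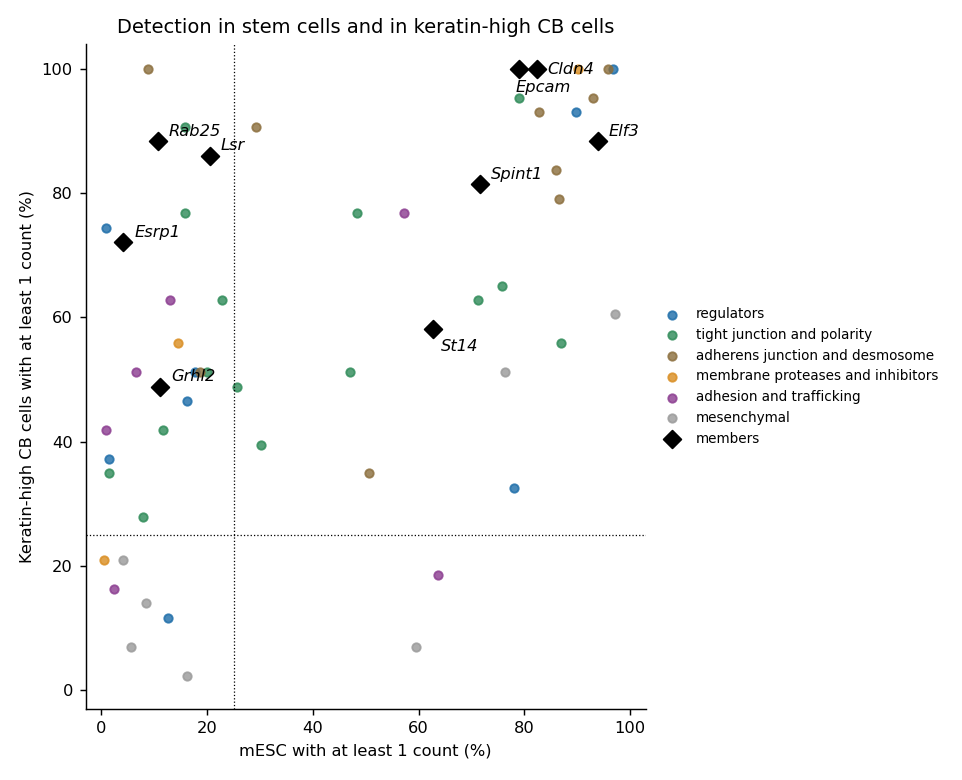
Share of mESC (horizontal axis) against share of keratin-high CB cells (vertical axis) with at least 1 count, in percent, for the 9 genes (black diamonds) and the genes of 6 function lists, with dotted lines at 25%. Elf3, Cldn4, Spint1, St14 and Epcam lie to the right of the vertical line, and Esrp1, Grhl2, Rab25 and Lsr to its left.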

How the data were processed

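Single cells of 3 cultures (mESC, CPCC and CB, 1 sample each) were profiled on the Fluidigm C1 system with SMART-Seq v4 and Nextera XT, and paired reads were aligned by the authors with STAR 2.7 (per the labels) to GRCm38 (mm10) in Partek Flow with Ensembl annotation. The authors deposited a table for each culture, whose columns are cells. The CPCC table held whole counts, and the mESC and CB tables held estimated counts, deposited without scaling, of which 32.0% and 34.6% of the values above 0 were not exactly whole. Any effect of this difference on the shares of cells and ratios of CPCC was not tested. Full-length reads carry no molecular identifiers. In the CPCC table, 208 rows without a gene name and 23 rows whose names had become dates (0.139% of counts) were left out, as were 2 empty columns that matched no cell.

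Counts were summed over cells and scaled to CPM, and log2 ratios used a pseudocount of 1 CPM. With 1 sample per culture, no test was made, and the 9 genes and all lists were chosen with earlier results of these data known. Cells were grouped by culture from the labels, and by pool from the column names. Clusters were found in each culture with Seurat 5.3.0 (variable genes by mean and dispersion, the 9 genes removed, 10 principal components, resolution 0.6). No cell was removed, and no doublet caller was run. Clusters were named from fixed marker lists. Shares of cells carry Clopper-Pearson intervals and CPM values Poisson intervals (scipy 1.17.1), both at 95% and for counting error only. For a share of 0, the limit given is 3 cells of the total. For thinning, cells were rounded and drawn to 430000 counts, leaving out shallower cells (22 of mESC, 18 of CPCC, 22 of CB). The named genes were the 9, up to 3 genes of each list with the highest CPM in keratin-high cells (other CB cells for the mesenchymal list), the 5 leading genes of the keratin-high cluster, and the 5 genes most like the mean of the 9, except that 1 gene these rules name is not reported here. Grhl3, Ildr1 and the genes named in the unnamed CB cluster were singled out after their values were seen. Gene positions came from GENCODE M21. The ratio was checked on simulated counts for CB against mESC over 22439 genes, where genes changed 4-fold gave a median log2 of 1.94. Alternatives were other scalings (edgeR 4.0.16, DESeq2 1.42.0), pseudocounts, cell filters, clusterings and leaving out each pool or single cells.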

Additional observations from a re-analysis of the deposited data

How the results depend on the processing

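No paired analysis was possible because each culture is 1 sample and no test was made. In CPCC against mESC, 4 to 7 of the 9 genes were past 2-fold over all alternatives, against 6 in the main setting, and in CB against mESC 6 to 7, against 7. All 9 were past 2-fold in keratin-high against other CB cells under every alternative, of which 3 (fibroblast-like cells alone, the unnamed cluster alone, and keratin-high cells low in fibroblast markers) were added after the data were seen. In CB against CPCC the count of 3 became 0 without CB pool 3 and 6 without CPCC pool 1. The 5 genes shared by mESC and keratin-high cells were the same 5 under every alternative except a limit of 10% of the cells, which gave 8, all but Esrp1. With a pseudocount of 10 CPM, Grhl2 (0.91) and Rab25 (0.91) were not past 2-fold in CPCC against mESC. Leaving out, for each gene, the cell with most of its counts in either set was also added after the data were seen, and changed 3 calls: St14 in CPCC against mESC (-1.09), Spint1 in CB against CPCC (1.06) and Cldn4 in CPCC cluster 2 against mESC (0.64). Of 621 log2 ratios of single genes, 559 moved by less than the spread between pools and 62 by more. Among those past 2-fold in the main setting, 0 changed sign. Smaller ratios could change sign. St14 in CPCC cluster 2 against mESC went from 0.41 to -0.17 without the cluster 2 cell with most of its counts. Among genes of at least 1 CPM in either set, the share called higher rose from 13.4% to 17.5% in CPCC against mESC and from 24.9% to 30.8% in CB against mESC. The scaling mattered most for CB: its median log2 ratio to mESC over expressed genes was 0.29 with library totals, 0.11 with TMM and 0.06 with DESeq2 size factors. A definition by 3 of 4 keratins per cell took 71 CB cells, of which 41 were in the cluster of 43. Of 108 shares of cells, 98 stayed within their interval when detection was set at 5 counts, cells were thinned or shallow cells were left out. The fewest counts in a cell of a culture ran from 4 to 8102, so a gene can be missed in the shallowest cells. After thinning, which left out such cells, the low mESC shares were 4.66% for Esrp1, 10.9% for Grhl2, 10.4% for Rab25 and 19.7% for Lsr.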

Other observations

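The mESC formed 3 clusters. Cluster 0 was 83 cells of pool 1 among 85, while cells of pools 2 and 3 were in both others, with 33 and 34 of the 72 cells in cluster 1 and 43 and 13 of the 58 in cluster 2. Elf3 was at 155, 138 and 172 CPM in clusters 0, 1 and 2, with shares of 98.8%, 83.3% and 100%. Epcam was at 53.7, 49.4 and 71.5 CPM and Cldn4 at 58.4, 63.9 and 50.7 CPM. Spint1, the inhibitor of St14, was at 59.2, 43.1 and 32.2 CPM. Of the 7 mESC with 7 or more of the 9 genes, 6 were in cluster 2, which held 58 cells.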
